A study of Rattus norvegicus with 12 samples.

Results

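Kidney cortex of male rats of strain SS-Xdhem1Mcwi was compared between animals homozygous for a mutated Xdh gene (HOMO) and heterozygous animals (HET). These groups made up 8 of the 12 libraries of the study, 4 HOMO and 4 HET, and the remaining 4 came from wild-type rats of the same strain (WT). Every library was taken from rats aged 6 weeks that were littermates, per the series design, and the libraries were assigned by genotype as their titles give it. Messenger RNA from Trizol extracts of frozen cortex was sequenced after stranded library preparation. The genotype is given for the whole animal, with no driver or cell type, and the titles call the allele a knockout (KO) without saying how the gene was changed. Whether every library stands for its own animal is not in the labels; if not, the p-values reflect only how far these samples differ from each other, and that can be technical.

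Xdh encodes xanthine dehydrogenase, the enzyme that turns hypoxanthine into xanthine and xanthine into urate, the last steps of purine breakdown before uricase. Without it, hypoxanthine and xanthine are excreted in urine, and xanthine dissolves poorly there. Kidney cortex consists mostly of proximal tubule, an epithelium rich in mitochondria that reabsorbs filtered glucose, phosphate, amino acids and protein, secretes organic anions and makes glucose. Injured proximal tubule cells are known to lose these functions and to express a set of injury genes, and long injury brings in leukocytes and collagen-producing fibroblasts.

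Total counts ran between 22858907 and 36998378 in HOMO libraries and between 18995464 and 37023629 in HET libraries. The 4 HOMO libraries lay together on the first principal component, which held 83.8% of the variance among the 8 libraries, at -110.2 to -86, against 85.6 to 106.3 for the HET libraries. Genes of the mitochondrial genome took 6.43% ± 0.353 of counts in HOMO and 15.8% ± 2.37 in HET (SD, n = 4 each). The 10 most abundant genes took 8.60% ± 0.334 in HOMO and 18.8% ± 2.15 in HET (SD, n = 4 each). More genes reached 10 counts in HOMO libraries, 15963 ± 362, than in HET libraries, 14525 ± 404 (SD, n = 4 each). Each of these 3 measures separated the groups without overlap, with an exact two-sided permutation p of 0.0286 and an adjusted p of 0.0286, the smallest that 4 libraries against 4 can give.

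Xdh itself was measured first, as a check of the labels. Its level was 61.7, 60.7, 230 and 57.6 CPM (read counts scaled to library size with TMM factors) in HOMO libraries 1, 2, 3 and 4, against 182, 197, 140 and 158 CPM in HET libraries 1, 2, 4 and 5. In 3 HOMO libraries Xdh lay below every HET library, and in the library labelled HOMO replicate 3 it lay above all of them, which for Xdh goes against that label. The rest of that library's profile lay with HOMO, at -86 on the first principal component. Over log2 CPM, HOMO libraries correlated with each other at 0.972 to 0.986 and with HET libraries at 0.815 to 0.866. Why its Xdh level differed was not tested. Over all 4 the means were 102 ± 84.9 CPM in HOMO and 170 ± 25.3 CPM in HET (SD, n = 4 each), a log2 fold change of -0.73 ± 0.43 (SE) with an adjusted p of 0.151 in edgeR's quasi-likelihood test with Benjamini-Hochberg adjustment, so no call was made. An exact two-sided permutation test of the CPM values gave p = 0.143. With the library labelled HOMO replicate 3 left out, the HOMO mean was 60.0 ± 2.15 CPM (SD, n = 3), 35.4% of the HET mean (log2 fold change -1.503). The omitted library was singled out by its Xdh level, so this is a description with no test. Scaling by library size alone gave -0.088 for all 4 (adjusted p = 0.856 in edgeR), and limma voom gave -1.01 (adjusted p = 0.0396). WT libraries averaged 286 ± 69.7 CPM (SD, n = 4), at 212 to 380 CPM, so each lay above every HET library. The HET to WT difference was -0.75 ± 0.43 (SE) on the log2 scale, with an adjusted p of 1 in edgeR's quasi-likelihood test. That test estimated spread over all 12 libraries, the library labelled HOMO replicate 3 included, so it does not show equal Xdh levels. In the authors' deposited table Xdh had a log2 fold change of -0.71 at a false discovery rate of 0.071. Counts over the whole gene do not show whether a transcript still encodes a working enzyme. Results below include the library labelled HOMO replicate 3. Without it the counts of 16 of the 34 gene lists described below changed, in 14 of them with no count moved by more than 1, and values without it are given for the others and for fold changes that moved by over 1.5 times.

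Most of the transcriptome differed between the groups. Of 15856 genes tested, 11199 passed an adjusted p of 0.05 in edgeR's quasi-likelihood test with Benjamini-Hochberg adjustment, which is 70.6%, and these are the genes named as called below. Of all genes tested, 5733 (36.2%) were higher in HOMO and 5466 (34.5%) were lower. More than 2-fold changes numbered 3356 higher and 2422 lower, more than 16-fold changes 371 and 230, and more than 64-fold changes 96 and 51. For 10215 genes, 64.4%, the 4 HOMO and the 4 HET libraries did not overlap. The median absolute log2 fold change was 0.68. Leaving out the library labelled HOMO replicate 3 gave 11178 called genes, of which 10709 were called in both fits and 0 in opposite directions. The authors' deposited table called 9022 of 13845 genes, 4746 higher and 4276 lower, and 8917 genes were called in both.

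Between the HET and WT libraries no gene was called by the same test, 0% of the 15856 tested. There, 318 genes had an unadjusted p under 0.05 in edgeR, 330 in DESeq2, which also called 0, and 229 in limma voom. Each count is below the 0.05 share of genes that no difference at all would give, so the tests were conservative here. Spread was estimated over all 12 libraries, HOMO included, and 0 calls do not show equal levels in HET and WT. The median absolute log2 fold change of HET to WT was 0.085, and its 95th percentile was 0.61, against 3.63 for HOMO to HET. The authors' deposited table called 1 gene between HET and WT.

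**Figure D1:**
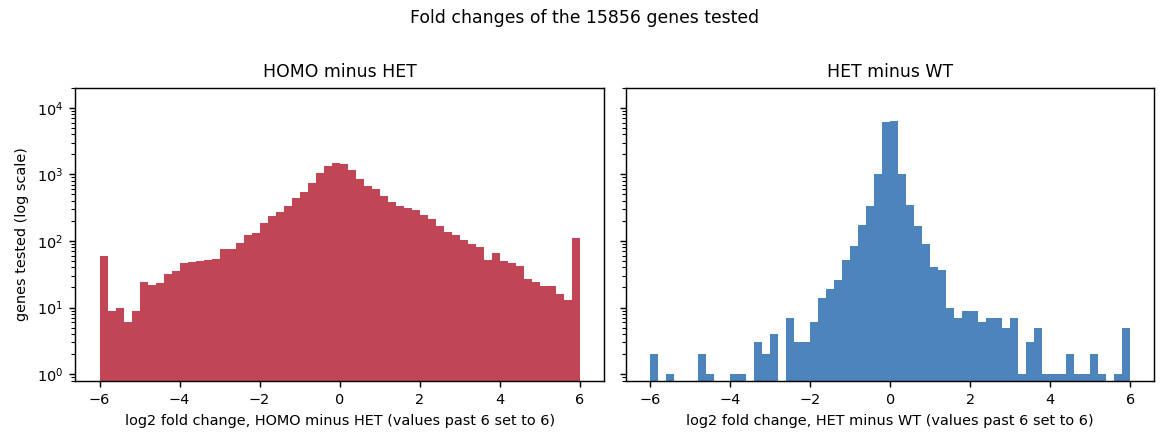
Number of genes (log scale) by log2 fold change in bins, for HOMO minus HET on the left and HET minus WT on the right, with values beyond 6 in either direction set to 6. The HOMO to HET changes spread far wider, with a median absolute log2 fold change of 0.68, against 0.085 for HET to WT.

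The scale on which levels are compared bears on the direction of small changes. TMM factors were 1.2921 to 1.3505 in HOMO and 0.8446 to 0.876 in HET, and on this scale the median log2 fold change of all genes tested was 0.04. With library size alone the median moved to 0.67 and 80.5% of called genes were higher in HOMO, against 51.2% with TMM. Under both scales 1054 genes were called in opposite directions. All fold changes below are relative to the TMM scale.

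Markers of tissues that lie beside the cortex were high in replicate 1. Summed adipocyte genes stood at 1319 CPM in HOMO replicate 1 and 433 CPM in HET replicate 1, against 28.7 to 49.4 CPM in the other HOMO and 18.0 to 40.5 CPM in the other HET libraries, and 0 of the 4 tested were called. Urothelium genes summed to 154 CPM in HOMO replicate 1, against 0.861 to 4.19 CPM in the other HOMO libraries and 0.245 to 0.779 CPM in HET. Of 4 urothelium genes tested 3 were higher in HOMO, and Upk3a and Krt5 were at 0 in every HET library. Red blood cell (0 of 5), adrenal (0 of 3) and nerve (0 of 3) markers were not called. Their sums were still highest in replicate 1 of both HOMO and HET. In HOMO replicate 1 they were 418.9, 22.36 and 76.52 CPM, against at most 189.6, 9.391 and 14.98 CPM in the other HOMO libraries. In HET replicate 1 they were 777.5, 13.71 and 29.25 CPM, against at most 154, 6.128 and 13.67 CPM in the other HET libraries. The red blood cell sum was also high in WT replicate 4, at 1143 CPM. Without HOMO replicate 1, 10743 genes were called. No named gene lost its call, which says little because all but Xdh were picked as called genes. HET replicate 4 stood apart from the other HET libraries in genes of the straight proximal tubule, in which WT libraries also spread, as described below.

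The largest rises were in genes that are nearly silent in HET cortex. The largest rises and falls were picked among called genes whose groups did not overlap. Mmp7, a matrix metalloproteinase secreted by injured epithelium, was at 68.3, 49.97, 42.6 and 90.8 CPM in HOMO, against 0, 0, 0 and 0 CPM in HET, which is at least 1967-fold higher when HET is set at 3 counts over the group. Tdo2, which opens the ring of tryptophan, was at 6.09, 11.9, 15.6 and 8.50 CPM in HOMO, against 0.0312, 0, 0 and 0 CPM in HET. It had 1 count over the HET group and a ratio of 1051 with an exact 95% counting interval of 188.4 to 41540. Both genes were high in every HOMO library.

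Il24, a cytokine, was at 18.0, 20.4, 24.6 and 33.4 CPM in HOMO, against 0, 0, 0.0873 and 0.0613 CPM in HET, a ratio of 759 (exact 95% counting interval 259.5 to 3682). Prss22, a tryptase-like serine protease, was at 7.72, 5.87, 9.73 and 13.4 CPM in HOMO, against 0, 0, 0.0436 and 0 CPM in HET, a ratio of 870 (exact 95% counting interval 155.9 to 34380). These intervals cover counting error only. Aoc1, a diamine oxidase that breaks down histamine and putrescine, was at 29.4, 30.7, 30.0 and 22.3 CPM in HOMO, against 0, 0.0375, 0.0873 and 0.0613 CPM in HET, a log2 fold change of 9.29 ± 0.34 (SE, adjusted p = 1.86e-10).

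The other 5 of the 10 largest rises were Cxcl6, a neutrophil chemokine, at 27.5 ± 9.58 CPM in HOMO and 0.0569 ± 0.0871 CPM in HET; Cthrc1, a secreted protein of collagen-rich repair tissue, at 57.3 ± 25.6 CPM in HOMO and 0.122 ± 0.0986 CPM in HET; and Krt17, a stress keratin, at 19.5 ± 9.91 CPM in HOMO and 0.0418 ± 0.0292 CPM in HET (SD, n = 4 each). Sfrp4, a secreted Wnt antagonist, stood at 29.9 ± 20.2 CPM in HOMO and 0.0655 ± 0.0883 CPM in HET, and Dio3, which inactivates thyroid hormone, at 12.2 ± 6.00 CPM in HOMO and 0.0325 ± 0.0252 CPM in HET (SD, n = 4 each). Their adjusted p-values ran up to 1.42e-05, that of Sfrp4. In the library labelled HOMO replicate 3, Cthrc1 at 19.9 CPM, Krt17 at 8.09 CPM, Sfrp4 at 5.29 CPM and Dio3 at 3.87 CPM were each the lowest of the 4 HOMO libraries. Each lay above every HET library, which the rule that picked them required. With counts this low in HET, single HET libraries moved the fold changes: Cxcl6 had 9.24, and 10.73 without HET replicate 5, Cthrc1 8.83, and 9.47 without HET replicate 1, and Sfrp4 8.47, and 9.76 without HET replicate 1, on the log2 scale.

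The largest falls included transporters, kallikrein-family proteases and metabolic enzymes. Slco1a1, an organic anion transporter, was at 0.0206, 0.0504, 0.0200 and 0 CPM in HOMO, against 64.8, 65.0, 173 and 29.9 CPM in HET, a log2 fold change of -11.55 ± 1.59 (SE, adjusted p = 9e-05), though not called in limma voom (-11.1, adjusted p = 0.131). Klk1c10, a kallikrein-family serine protease, was at 0, 0, 0 and 0 CPM in HOMO, against 3.89, 3.64, 3.14 and 4.78 CPM in HET, at least 212-fold lower when HOMO is set at 3 counts over the group. Its relative Klk1c2 was at 0.0206, 0, 0 and 0 CPM in HOMO, against 2.62, 3.64, 2.44 and 4.17 CPM in HET, a ratio of 522 lower (exact 95% counting interval 92.93 to 20670). Counts of the Klk1c genes, and of the Cyp4a, Akr1c and C4 genes named below, are uncertain because near-identical copies may share reads.

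Cacng5, a gene of the calcium channel gamma subunit family, was at 0.227, 0.101, 0.0601 and 0.0339 CPM in HOMO, against 22.1, 25.6, 145 and 9.32 CPM in HET (log2 fold change -8.76 ± 1.72, SE, adjusted p = 0.00111), and was not called in limma voom (-8.23, adjusted p = 0.204). Its fold change was -9.47 without HOMO replicate 1 and -7.37 without HET replicate 4. Kap, the kidney androgen-regulated protein of the proximal tubule, was at 42.0, 54.6, 11.8 and 2.44 CPM in HOMO, against 6103, 5997, 7820 and 5742 CPM in HET (log2 fold change -7.85 ± 0.90, SE, adjusted p = 1.54e-05). No HOMO library reached the lowest HET library for any of these genes, which the rule that picked them required. The other 5 of the 10 largest falls were Spink1, a trypsin inhibitor (log2 fold change -7.62), Mbl1, a mannose-binding lectin (-7.59), Cyp4a2, a fatty acid omega-hydroxylase (-7.57), Acot12, an acetyl-CoA thioesterase (-7.46), and Akr1c12l1, an aldo-keto reductase (-7.36), with adjusted p-values up to 0.000105.

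**Figure D2:**
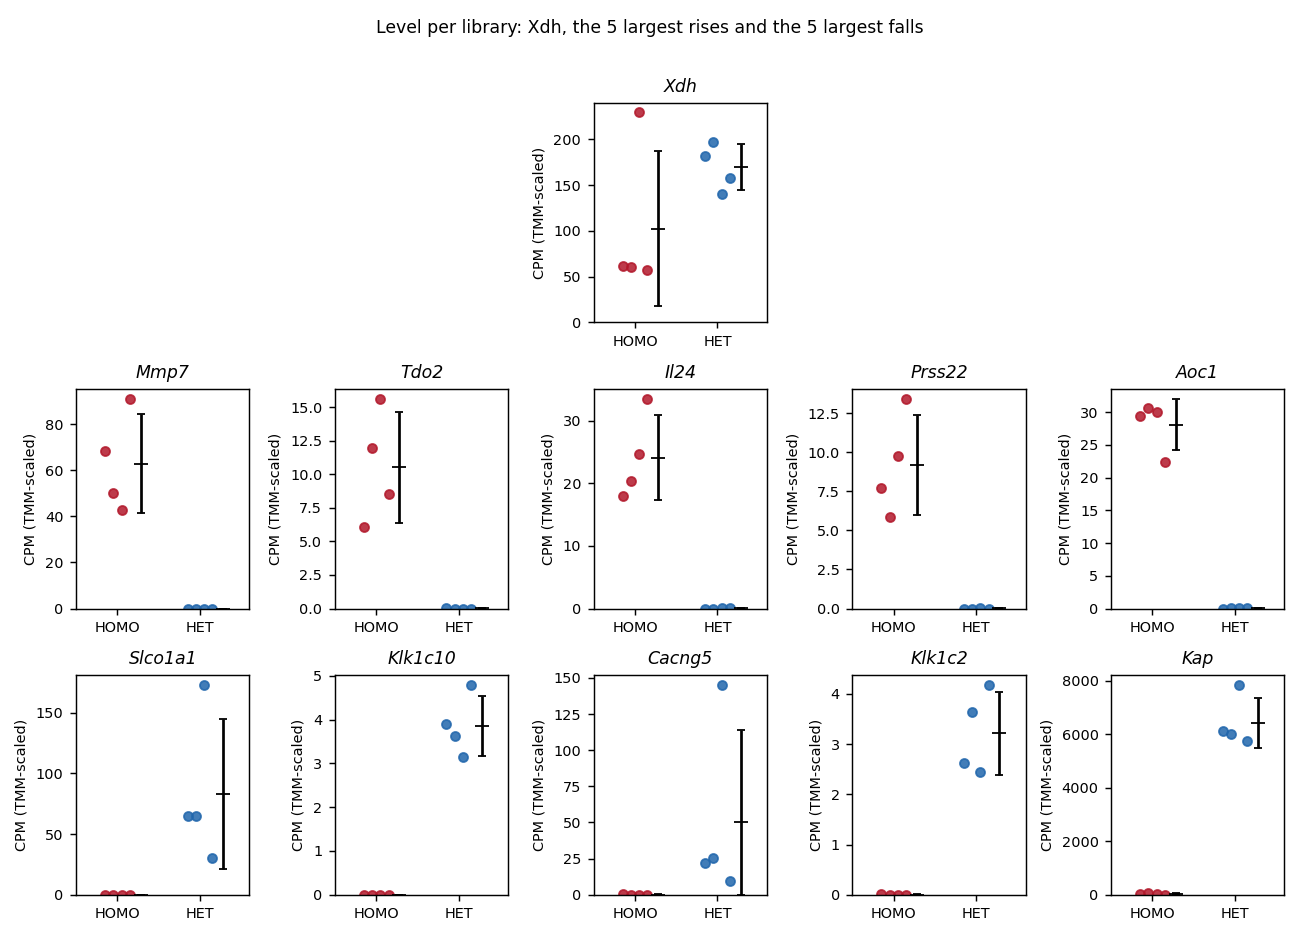
TMM-scaled CPM (linear axes that start at 0, a different range in each panel) of Xdh in the top panel, the 5 largest rises in the middle row and the 5 largest falls in the bottom row, in HOMO (left) and HET (right) libraries. Points are libraries and bars are the mean ± SD (n = 4 each). Xdh is high in the library labelled HOMO replicate 3. Every other gene shown separates the groups without overlap, which the rule that picked these genes required.

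Sequence before the start of 3 of these and of the tubule genes below is shown because their promoters carry motifs of regulators of inflammation and of tubule genes. RefSeq windows of 250 bases before the gene start (GRCr8) were searched on both strands for AP-1 sites (TGANTCA), NF-kappa-B cores (GGGANTTTC), HNF1 cores (GTTAATNAT) and HNF4 cores (CAAAGTCCA), none of which contains another. Capitals mark the match. The window of Mmp7 is chr8:13132793-13133042 on the plus strand, with an AP-1 match 80 bases before the start. That of Cxcl6 is chr14:17596418-17596667 on the minus strand, with an NF-kappa-B match 88 bases before the start. That of Slc7a12, a tubule gene described below, is chr2:88868104-88868353 on the minus strand, with an HNF1 match 88 bases before the start.
Mmp7: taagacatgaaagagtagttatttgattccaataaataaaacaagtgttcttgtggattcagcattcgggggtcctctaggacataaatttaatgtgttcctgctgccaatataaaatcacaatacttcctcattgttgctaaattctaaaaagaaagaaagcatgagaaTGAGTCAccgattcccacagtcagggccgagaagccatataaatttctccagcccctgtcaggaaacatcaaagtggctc
Cxcl6: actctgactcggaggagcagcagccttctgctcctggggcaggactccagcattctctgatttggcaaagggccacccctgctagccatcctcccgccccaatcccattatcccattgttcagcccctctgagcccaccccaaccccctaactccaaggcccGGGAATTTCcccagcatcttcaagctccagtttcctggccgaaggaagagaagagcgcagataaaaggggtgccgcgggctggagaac
Slc7a12: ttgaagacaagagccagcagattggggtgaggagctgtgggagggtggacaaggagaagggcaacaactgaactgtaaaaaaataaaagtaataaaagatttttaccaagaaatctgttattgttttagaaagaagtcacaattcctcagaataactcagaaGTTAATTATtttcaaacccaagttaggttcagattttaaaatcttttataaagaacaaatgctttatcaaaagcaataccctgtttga
Among 27457 promoters the AP-1 letters were in 6.36%, the NF-kappa-B core in 0.958%, the HNF1 core in 0.67% and the HNF4 core in 0.331%; among the 10958 of genes tested these shares were 4.59%, 1.12%, 0.475% and 0.329%. Of 40 promoters of named genes higher in HOMO, 5 held the AP-1 letters and 2 the NF-kappa-B core. Of 45 promoters of named genes lower in HOMO, 2 held the HNF1 core and 0 the HNF4 core. Over all called genes with a promoter, 3952 higher and 3941 lower, the AP-1 letters were in 5.34% of higher and 4.14% of lower genes, and the NF-kappa-B core in 1.75% of higher and 0.685% of lower genes. The HNF1 core was in 0.354% of higher and 0.609% of lower genes, and the HNF4 core in 0.228% of higher and 0.457% of lower genes. No test was made of these shares. A match is a description of the letters and does not show that a factor binds there.

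Genes of the nephron and of other cells, metabolism, injury and immunity were followed with 34 lists holding 631 members, of which 594 entries, 586 different genes, were tested. The named members of each list were, by a set rule, those with the largest changes among called members whose log2 CPM averaged 1 or more, so less abundant members can have changed more. Further members given as examples were chosen after their values were seen. Counts in a list can be read against the 36.2% of all genes tested that were higher and the 34.5% that were lower. In bulk cortex, fewer cells of a type and less RNA per cell cannot be told apart. No named gene other than Xdh lost its call when any one of the 8 libraries was left out. Because these genes were picked from the same data as called genes with the largest changes, that is no independent check.

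**Figure D3:**
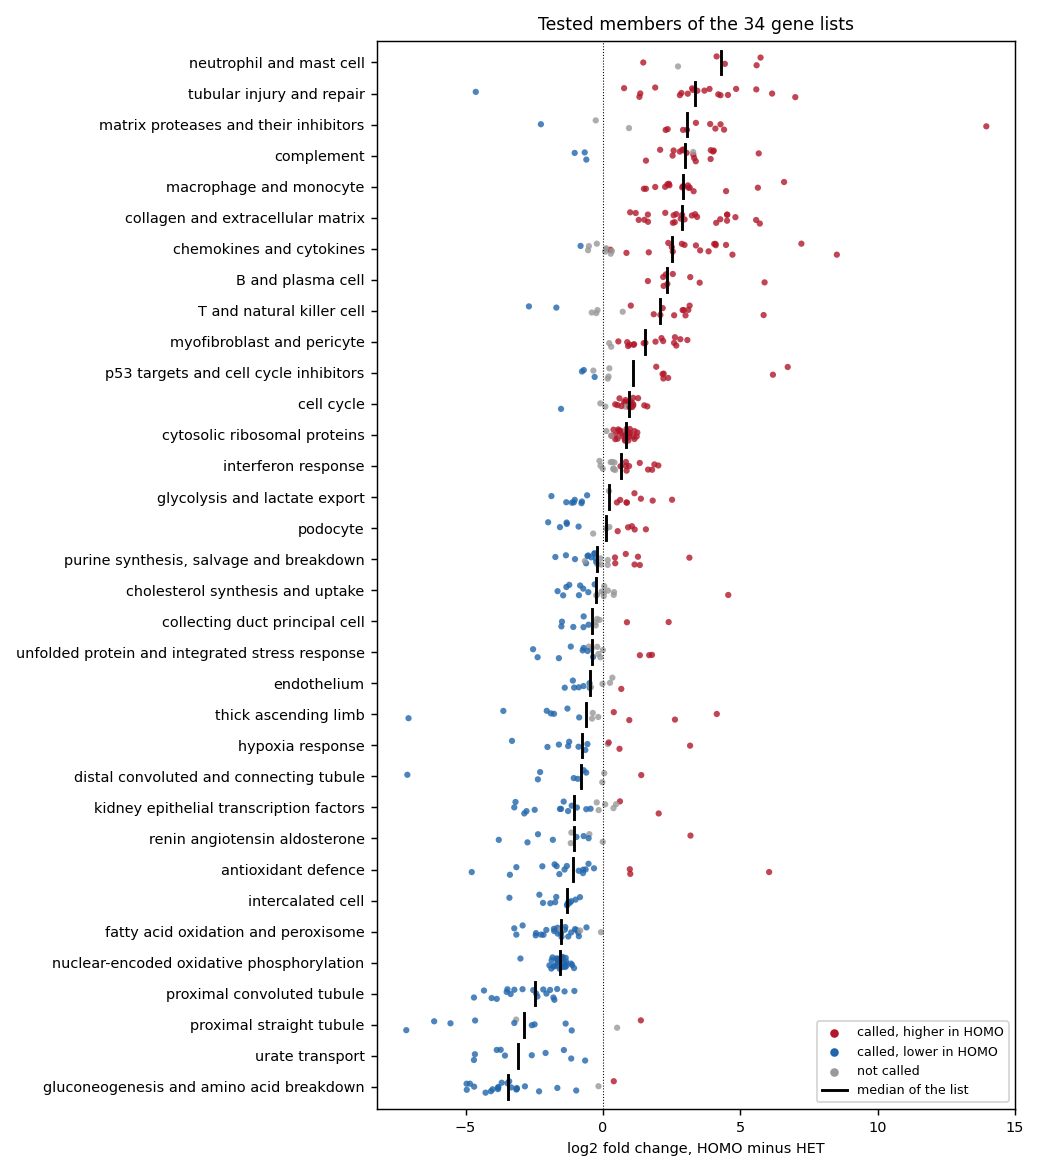
Log2 fold change (HOMO minus HET) of the tested members of the 34 lists, red for called and higher in HOMO, blue for called and lower, grey for not called, with a black bar at the median of each list. Medians run from -3.47 for gluconeogenesis and amino acid breakdown to 4.29 for neutrophil and mast cell genes, against 0.04 for all genes tested; the point at 13.95 is Mmp7, whose fitted value rests on 0 counts in HET.

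Every marker of the convoluted proximal tubule was lower in HOMO. All 20 were called lower, with a median log2 fold change of -2.48 and a range of -4.69 to -1.04. Slc34a1, the main phosphate transporter of the brush border, averaged 229 ± 14.99 CPM in HOMO and 4593 ± 163 CPM in HET (SD, n = 4 each; log2 fold change -4.33). Slc22a6, the basolateral organic anion transporter OAT1, averaged 61.7 ± 12.4 CPM in HOMO and 1596 ± 197 CPM in HET (SD, n = 4 each; -4.69). The endocytic receptors Lrp2 (megalin, -2.92) and Cubn (cubilin, -1.67), the glucose transporters Slc5a2 (-2.06) and Slc2a2 (-1.04) and the water channel Aqp1 (-2.38) fell too. Summed over the list, the level was 3123 to 3544 CPM in HOMO libraries and 23430 to 23850 CPM in HET libraries.

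Urate handling belongs to the same cells. All 10 genes of urate transport tested were lower in HOMO, with a median of -3.08. Besides Slc22a6, Slc5a8, a sodium-coupled monocarboxylate transporter, averaged 2.83 ± 2.10 CPM in HOMO and 72.9 ± 44.4 CPM in HET (SD, n = 4 each; log2 fold change -4.66). Slc22a12, the urate reabsorption transporter URAT1 (-3.72), the scaffold gene Pdzk1 (-3.56), the efflux pump Abcg2 (-2.09) and the transporter Slc2a9 (-1.42) also fell. The members are partly the same as those of the convoluted tubule list, since Slc22a6 and Slc22a8 are in both.

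Of 12 genes of the straight proximal tubule, 9 were lower, 1 was higher and 2 were not called, with a median of -2.87. Slc7a12 and Slc7a13, amino acid transporters, had log2 fold changes of -7.16 ± 1.49 and -6.14 ± 1.59 (SE), with adjusted p-values of 0.00157 and 0.00589; in limma voom Slc7a12 was not called (-6.22, adjusted p = 0.137). Cyp7b1, a hydroxylase of oxysterols and steroids, went the other way at 15.2 ± 4.01 CPM in HOMO and 5.81 ± 0.133 CPM in HET (SD, n = 4 each). HET replicate 4 stood apart in several of these genes. Slc7a13 was at 22.6, 20.8, 3.58 and 0.474 CPM in HOMO, against 563, 389, 2262 and 155 CPM in HET, so the groups did not overlap although the HET libraries themselves spread over more than 10-fold. The WT libraries spread widely as well, with Slc7a13 at 1239, 40.5, 2949 and 2282 CPM in WT replicates 1, 2, 3 and 4. In the same order, Gclc was at 2902, 287, 5451 and 4180 CPM and Tff3 at 345, 18.3, 794.5 and 531 CPM in WT. Among HET libraries, Cacng5, Slc7a12, Slco1a1, Akr1c12l1, Gclc and Tff3 were also highest in HET replicate 4. Without that library the list's median was -2.19, and the log2 fold changes were -4.96 for Slc7a13, -5.43 for Slc7a12, -10.92 for Slco1a1, -6.66 for Akr1c12l1, -3.91 for Gclc and -3.41 for Tff3, all still called.

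**Figure D4:**
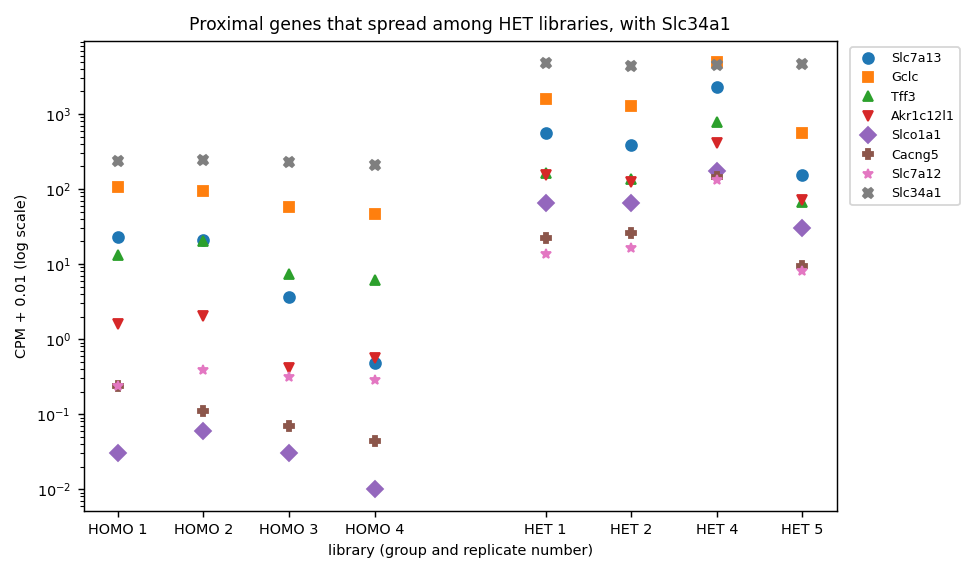
CPM + 0.01 (log scale) of 8 genes in each HOMO and HET library. Slc34a1, of the convoluted tubule, is nearly level within each group. The other 7 genes are highest in HET replicate 4 and lowest among HET libraries in HET replicate 5. They still lie lower in every HOMO library, which for Slco1a1, Cacng5 and Akr1c12l1 was required by the rule that picked them.

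Distal nephron genes moved in both directions. In the thick ascending limb 7 of 14 genes were lower, 4 higher and 3 not called (median -0.63, or -0.0052 by library size alone). Egf, epidermal growth factor, averaged 1.30 ± 0.469 CPM in HOMO and 177 ± 14.3 CPM in HET (SD, n = 4 each; log2 fold change -7.07). Cldn10, a claudin gene, fell by 3.62 on the log2 scale. The cotransporter gene Slc12a1 had a log2 fold change of -0.17 and was not called. Distal convoluted and connecting tubule genes were lower in 7 of 10, higher in 1 and not called in 2 (median -0.81, or -0.18 by library size alone), led by Klk1, tissue kallikrein, at 5.48 ± 4.74 CPM in HOMO and 770 ± 137 CPM in HET (SD, n = 4 each), and Calb1, calbindin (-2.37). The log2 fold change of Klk1 was -7.12, and -7.95 without the library labelled HOMO replicate 3, where it was at 12.6 CPM. The calcium channel gene Trpv5 rose by 1.39 on the log2 scale (adjusted p = 0.00475). It was highest in the library labelled HOMO replicate 3, at 228 CPM.

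All 13 intercalated cell genes were lower (median -1.31, and -1.69 without the library labelled HOMO replicate 3), led by Slc4a1, the anion exchanger AE1 (-3.40), and Aqp6, a channel of intracellular vesicles (-2.31). Of 12 principal cell genes 6 were lower, 2 higher and 4 not called, with a median of -0.40, or 0.23 by library size alone. Fxyd4, a regulator of the sodium pump, was lower (-1.51), Aqp4, a basolateral water channel, was higher (2.39), and Aqp3, another basolateral water channel, was lower (-1.08, adjusted p = 0.0106) but not called with library size alone. The vasopressin-regulated channel gene Aqp2 had a log2 fold change of -0.12 and was not called.

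Among 20 transcription factors of kidney epithelium, 13 were lower, 2 higher and 5 not called (median -1.04). Hnf4a, a nuclear receptor of proximal tubule differentiation, averaged 122 ± 24.1 CPM in HOMO and 1104 ± 110 CPM in HET (SD, n = 4 each; log2 fold change -3.18). Ppara, a regulator of fatty acid oxidation, fell by 3.23 on the log2 scale. Sox9, which is switched on in regenerating tubule, rose (2.03, adjusted p = 0.00119), and so did Pax2 (0.62).

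Podocyte genes were divided, with 5 of 13 higher, 5 lower and 3 not called. The median was 0.12, which turned to -0.08 without HOMO replicate 4. Kirrel1, a slit diaphragm protein, averaged 148 ± 33.3 CPM in HOMO and 50.2 ± 8.99 CPM in HET (SD, n = 4 each; log2 fold change 1.56). Of 12 endothelial genes 7 were lower, 1 higher and 4 not called, with a median of -0.48, or 0.15 when only library size was used for scaling. Emcn (-1.39) and Ehd3 (-1.09), genes of capillary and glomerular endothelium, fell, and Erg, an endothelial transcription factor, rose (0.67).

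Nuclear genes of mitochondrial energy production fell together. All 30 nuclear-encoded genes of oxidative phosphorylation were lower (median -1.56), among them Cycs, cytochrome c, at 6.95 ± 0.654 CPM in HOMO and 55.7 ± 10.3 CPM in HET, and Ndufs1, a complex I subunit, at 154 ± 19.95 CPM in HOMO and 595 ± 33.7 CPM in HET (SD, n = 4 each). Of 27 genes of fatty acid oxidation and peroxisomes 24 were lower, 0 higher and 3 not called (median -1.52); Cat, catalase, had a log2 fold change of -3.15. The share of counts from the mitochondrial genome, given above, was lower in HOMO as well, and its part in these results was not tested.

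Gluconeogenesis and amino acid breakdown had the lowest median of the 34 lists, -3.47, with 21 of 23 genes lower, 1 higher and 1 not called. Miox, the inositol oxygenase of proximal tubule, averaged 103 ± 18.0 CPM in HOMO and 3197 ± 444 CPM in HET (SD, n = 4 each; log2 fold change -4.96). Gldc, of the glycine cleavage system, fell by 4.95 on the log2 scale, and the glucose-making enzymes Pck1 (-4.69), Fbp1 (-4.08) and G6pc (-3.41) fell as well. Pck2, the mitochondrial form of phosphoenolpyruvate carboxykinase, was slightly higher, at 40.4 ± 4.02 CPM in HOMO and 30.7 ± 2.63 CPM in HET (SD, n = 4 each; 0.39).

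Glycolysis split evenly, with 8 of 17 genes higher, 8 lower and 1 not called (median 0.22). The rises were in Slc16a3, a lactate exporter (2.52), Hk2, hexokinase II (1.81), Pfkp, a phosphofructokinase (1.38), and Pkm, a pyruvate kinase (1.15), and the falls in Eno1, enolase, at 565 ± 106 CPM in HOMO and 2070 ± 198 CPM in HET (SD, n = 4 each; -1.87), Pgk1 (-1.33), Tpi1 (-1.13) and Gapdh (-1.06). Of 18 antioxidant genes 15 were lower and 3 higher (median -1.10). Gpx3, the secreted glutathione peroxidase made by proximal tubule, averaged 2930 ± 609 CPM in HOMO and 30604 ± 2837 CPM in HET (SD, n = 4 each; -3.38). Gclc, of glutathione synthesis, fell (-4.77, adjusted p = 0.00107), and Hmox1, heme oxygenase, rose (0.99, adjusted p = 0.0114) with overlap between the groups. Slc7a11, a cystine transporter of low abundance, averaged 3.65 ± 1.62 CPM in HOMO and 0.0514 ± 0.0834 CPM in HET (SD, n = 4 each; 6.05).

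In purine metabolism 11 of 24 genes were lower, 7 higher and 6 not called, with a median of -0.22, or 0.40 by library size alone. Gda, guanine deaminase, which makes xanthine from guanine, averaged 88.4 ± 15.5 CPM in HOMO and 9.98 ± 1.02 CPM in HET (SD, n = 4 each; log2 fold change 3.15). Nt5e, the ectonucleotidase that makes adenosine (-1.73), and Adk, adenosine kinase (-1.35), fell. Impdh1 (1.34) and Impdh2 (1.15), which commit purines to guanine nucleotides, rose, and Aox1, the aldehyde oxidase related to Xdh, had a log2 fold change of 0.17 and was not called.

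Cholesterol synthesis genes were lower in 9 of 19, higher in 1 and not called in 9, with a median of -0.24, or 0.38 by library size alone; Sc5d (-1.65) and Dhcr7 (-1.45), late enzymes of the pathway, led the falls. Stress response genes of the endoplasmic reticulum and of amino acid shortage were lower in 8 of 17, higher in 3 and not called in 6, with a median of -0.41, or 0.21 by library size alone. Phgdh (-2.54) and Psat1 (-2.38), serine synthesis enzymes, fell while Asns, asparagine synthetase, rose (1.78). Of 12 hypoxia genes 8 were lower, 3 higher and 1 not called (median -0.76, or -0.14 by library size alone), with Ankrd37 (-3.31) and the mitophagy gene Bnip3 (-1.60) lower and Egln3, an oxygen sensor, higher (0.60). Ribosomal protein genes were higher in 29 of 31 (median 0.82), with Rps16 at 828 ± 83.9 CPM in HOMO and 348 ± 15.4 CPM in HET (SD, n = 4 each) and Rps3 at a log2 fold change of 1.23, though pseudogene copies make these counts uncertain.

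Tubular injury genes rose in 19 of 20 cases, with a median of 3.36. Lcn2, the secreted siderophore-binding protein NGAL, averaged 518 ± 95.2 CPM in HOMO and 4.07 ± 0.748 CPM in HET (SD, n = 4 each; log2 fold change 6.999). Havcr1, the injury receptor KIM-1 of proximal tubule, averaged 635 ± 105 CPM in HOMO and 8.98 ± 2.88 CPM in HET (SD, n = 4 each; 6.16). Spp1, osteopontin (4.85), Cd44, its receptor (4.55), and the intermediate filament genes Vim (3.27), Krt18 (3.43) and Krt19 (3.09) rose with them. Tff3, a mucosal repair peptide, went the other way at 11.6 ± 6.41 CPM in HOMO and 289 ± 333 CPM in HET (SD, n = 4 each; -4.63), and its HET values spread with those of straight tubule genes.

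Of 23 cell cycle genes 19 were higher, 1 lower and 3 not called (median 0.93), with Aurkb (1.61) and Plk1 (1.505), mitotic kinases, higher and Ccnd1, cyclin D1, lower (-1.52). Only 8 of the 23 separated the groups without overlap, against 64.4% of all genes tested. The summed level, Ccnd1 included, overlapped at 465 to 721.5 CPM in HOMO and 467 to 775 CPM in HET. Among 14 p53 targets and cell cycle inhibitors 7 were higher, 3 lower and 4 not called. Cdkn2b, an inhibitor of cyclin D kinases, averaged 25.4 ± 6.95 CPM in HOMO and 0.248 ± 0.138 CPM in HET (SD, n = 4 each; log2 fold change 6.72). Fas, the death receptor (2.37), and Cdkn1a, the p21 gene (2.17), rose, and Ccng1 fell (-0.76), but was not called by library size alone (-0.13, adjusted p = 0.19 in edgeR).

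All 25 genes of collagen and extracellular matrix were higher, with a median of 2.88. Col8a1, a short-chain collagen, averaged 85.3 ± 22.2 CPM in HOMO and 1.61 ± 0.394 CPM in HET (SD, n = 4 each; log2 fold change 5.71). Tnc, tenascin C, was at 218, 243, 59.4 and 254 CPM in HOMO, against 4.67, 2.02, 2.62 and 7.29 CPM in HET (5.58 ± 0.54, SE). Fibrillar collagen Col1a1 (3.43) and Col3a1 (3.35), fibronectin Fn1 (4.12) and the cross-linking enzyme Lox (4.27) rose, and basement membrane Col4a1 rose least (0.99). Of 18 myofibroblast and pericyte genes 16 were higher and 2 not called (median 1.51), with S100a4, a calcium-binding protein of fibroblasts and leukocytes (3.07), Tagln, an actin-binding protein (2.82), and Acta2, smooth muscle actin (2.59), among them.

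Of 13 matrix proteases and inhibitors 10 were higher, 1 lower and 2 not called (median 3.06). After Mmp7, Adamts4, an aggrecan-cleaving protease, led at 33.4 ± 5.36 CPM in HOMO and 1.55 ± 0.491 CPM in HET (SD, n = 4 each). Timp3, an inhibitor of metalloproteinases, fell (-2.26). Markers of muscle were higher in HOMO in 4 of 4 tested, with summed levels of 62.5 to 149 CPM in HOMO and 27.7 to 46.9 CPM in HET, and those of lymphatic endothelium in 5 of 5, at 142 to 215 CPM in HOMO and 65.1 to 95.9 CPM in HET. Among the muscle markers, Des and Myh11 are also members of the myofibroblast and pericyte list, while Acta1 and Tnnt3 reached at most 1.51 and 2.37 CPM. The part of muscle and lymphatic markers in the matrix, myofibroblast and immune results was not tested.

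Leukocyte genes were higher. All 17 macrophage and monocyte genes rose (median 2.92): Cd163, a scavenger receptor, was at 44.1, 23.1, 104 and 106 CPM in HOMO, against 2.12, 0.150, 0.0436 and 0.123 CPM in HET (log2 fold change 6.59 ± 0.85, SE, and 9.29 without HET replicate 1), and Fcgr2b, an inhibitory antibody receptor, averaged 56.1 ± 17.0 CPM in HOMO and 1.13 ± 0.270 CPM in HET (SD, n = 4 each). The broad markers Adgre1 (1.90) and Aif1 (1.49) rose less. The 9 genes of B and plasma cells were all higher (median 2.34), with Jchain (3.52) and Blnk (1.64) as the named members. Of 17 T and natural killer cell genes 11 were higher, 2 lower and 4 not called (median 2.09); Cd3e (3.11) and Cd3g (3.00), parts of the T cell receptor complex, rose, Cd28, a co-stimulatory receptor, fell (-2.69), and the cytotoxic genes Prf1 (-0.24) and Nkg7 (-0.41) were not called.

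Among neutrophil and mast cell genes 5 of 6 were higher and 1 was not called (median 4.29, or 5.53 without HET replicate 1), with S100a8 (5.74) and S100a9 (5.59), the calprotectin subunits, leading. Of 27 chemokines and cytokines 18 were higher, 1 lower and 8 not called (median 2.51). Leaving out the library labelled HOMO replicate 3 made it 20 higher and 2 lower. Cxcl2, a neutrophil chemokine, was at 11.2 ± 6.05 CPM in HOMO and 0.0684 ± 0.0617 CPM in HET, and Ccl21, a lymphoid chemokine, at 217 ± 30.7 CPM in HOMO and 9.81 ± 2.39 CPM in HET (SD, n = 4 each). The fold change of Cxcl2 was 7.22, and 7.93 without HET replicate 2, on the log2 scale. Ccl5 was lower (-0.81, adjusted p = 0.00467) but not called by library size alone (-0.18), and the interferon-induced chemokine genes Cxcl9 (-0.22), Cxcl10 (0.28) and Cxcl11 (-0.54) were not called.

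Complement genes were higher in 16 of 20, lower in 3 and not called in 1 (median 2.98). C6, of the membrane attack complex, averaged 82.6 ± 17.0 CPM in HOMO and 1.52 ± 1.12 CPM in HET, and C4b averaged 355 ± 32.8 CPM in HOMO and 21.6 ± 9.73 CPM in HET (SD, n = 4 each), whereas C5 was lower (-1.03) but not called by library size alone (-0.40). The log2 fold change of C6 was 5.67, and 6.33 without HET replicate 1. Of 19 interferon response genes 10 were higher and 9 not called (median 0.64), and 14 were higher without the library labelled HOMO replicate 3; Gbp2 (2.02) and Oasl (1.87) led. Renin-angiotensin genes were lower in 7 of 12, higher in 1 and not called in 4 (median -1.06). Anpep, the aminopeptidase N of the brush border, fell by 3.79 on the log2 scale, while Ace, the converting enzyme, rose to 33.9 ± 11.1 CPM in HOMO, against 3.72 ± 2.15 CPM in HET (SD, n = 4 each).

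**Figure D5:**
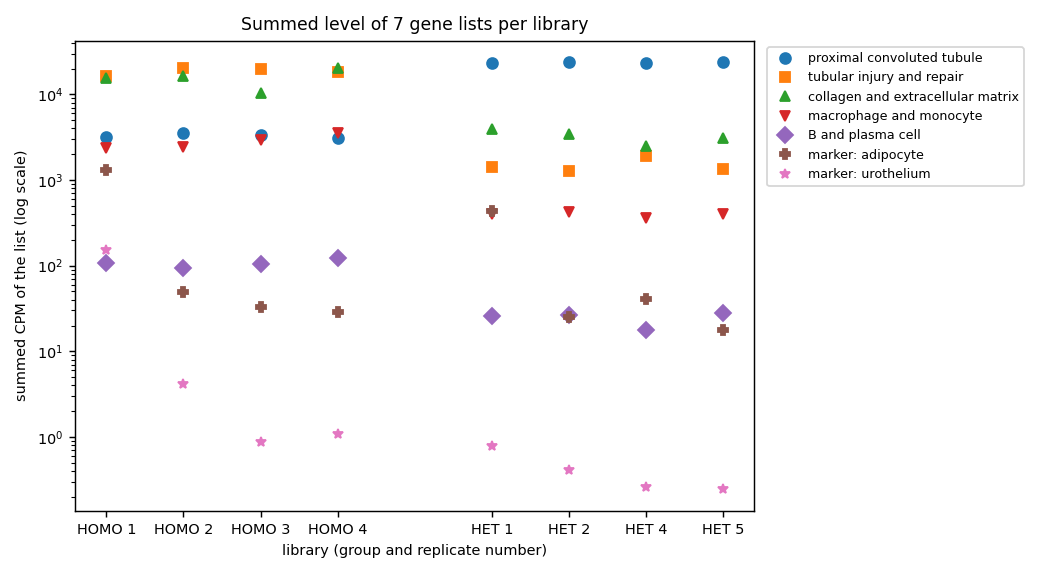
Summed CPM (log scale) of 7 gene lists in each library, HOMO on the left and HET on the right. Proximal tubule genes are lower and injury, matrix, macrophage and B cell genes higher in every HOMO library than in every HET library, while the adipocyte sum is high in replicate 1 of both groups.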

How the data were processed

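Sequencing counts per gene came from a table the authors deposited, as raw read counts for 32623 genes in 12 libraries of Rnor_6.0, which the submitters' processing notes name together with edgeR 3.8.6; how reads were aligned, counted and assigned to strands, and with which annotation, is not stated in the sources used. The authors also deposited pairwise tables with log2 fold changes, p-values with false discovery rates, and a call score of up or down, per the file headers; values from them are named as theirs. RPKM values and repeated count columns, 44 in all, were not used.

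Groups came from the sample titles. The members and the gene lists were chosen with earlier results of these data known. Of 22687 genes with a count, 15856 passed filterByExpr with a minimum count of 10 and a minimum total of 15. All 12 libraries were fitted in edgeR 4.0.16 (R 4.3.3) with a term per genotype, TMM factors, robust quasi-likelihood dispersion and Benjamini-Hochberg adjustment over all genes tested; the fit was tested on simulated data. SE is the absolute log2 fold change divided by the square root of F. Named genes were Xdh, the 10 largest rises and 10 largest falls among called genes whose log2 CPM averaged 1 or more, with no overlap between groups and a symbol that is not a placeholder, and in each list the 2 largest changes in the direction of its median and the 1 largest in the other; some of these genes are not reported here. Of the list members, 17 were not matched and are not analysed here, and 3 were matched by an older or newer symbol. Alternatives were limma 3.58.1 voom, DESeq2 1.42.0, other scalings, filters, thresholds, the replicate block and leaving out each library. Depth of 18995464 to 37023629 counts limits precision for genes with few counts.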

Additional observations from a re-analysis of the deposited data

Results flagged for a closer look

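In 28 of 220 sets of 4 libraries examined, 1 library lay far from the other 3 of its group (gap over range above Dixon's critical value for 4). Chance gives about 1 in 20 for normally distributed values, which CPM near 0 are not, so 28 of 220 is no test of an excess. The flags below of Tdo2 and Prss22 in HET and of Klk1c2 in HOMO rest on 1 count over the group. In the library labelled HOMO replicate 3, Xdh was at 229.7 CPM, Klk1 at 12.57 CPM, Gpx3 at 3842 CPM and Timp3 at 218.7 CPM, each the highest of the HOMO libraries, and Rps3 at 673.9 CPM was the lowest. In HOMO replicate 4, Sox9 was at 36.29 CPM, Eno1 at 721.5 CPM, Lcn2 at 660.9 CPM, S100a8 at 63.19 CPM and S100a9 at 110.6 CPM, each the highest of the HOMO libraries, and Aoc1 at 22.33 CPM was the lowest. In HOMO replicate 1, Klk1c2 at 0.02064 CPM and Phgdh at 50.2 CPM were the highest of that group, as was Adk at 91.69 CPM in HOMO replicate 2.

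Among HET libraries, replicate 4 stood apart most often. It was the highest for Prss22 (0.04364 CPM), Cacng5 (144.8 CPM), Slc7a12 (131.4 CPM), Sox9 (13.05 CPM), Hmox1 (25.53 CPM), Tff3 (784.9 CPM), Cd3g (1.222 CPM) and Ace (6.939 CPM), and the lowest for Ccng1 (142.7 CPM). HET replicate 1 was the highest for Tdo2 (0.03115 CPM), Hk2 (9.844 CPM) and Cd163 (2.118 CPM). HET replicate 2 was the highest for Aqp3 (250 CPM), and HET replicate 5 the lowest for Rps3 (297.7 CPM).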

How the results depend on the processing

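Genes called between HOMO and HET numbered 11199, and 10743 to 11178 when each library was left out in turn. They numbered 11184 with RLE factors, 12894 with library size alone, 11696 without a filter, 10450 with at least 1 CPM in 4 libraries, 11269 in DESeq2, 11188 in limma voom, 10795 in the 8 libraries alone and 9635 at a level of 0.01. Tested against a fold of 1.5, 6520 were called, 3598 higher and 2922 lower. With library size alone 10380 were higher and 2514 lower. Between HET and WT 0 genes were called in each of these settings except the 8 libraries alone, which hold no WT. Xdh had a log2 fold change of -0.73, which was -1.503 to -0.53 with 1 library left out. The value of -1.503 came without the library labelled HOMO replicate 3, which was singled out by its Xdh level, so no test is given for it. Xdh was not called when any other library was left out. It was -0.088 with library size alone, -1.20 with the replicate block (adjusted p = 0.0737 in edgeR) and -1.01 in limma voom, where it was called. With library size alone the medians were 0.23 for principal cell, 0.15 for endothelium, 0.40 for purine, 0.38 for cholesterol and 0.21 for stress response genes, the other way from TMM. The podocyte median was -0.081 to 0.19 with 1 library left out, and below 0 only without HOMO replicate 4. Of 106 named genes other than Xdh, 11 lost their call under some alternative, 3 of them in limma voom (Slco1a1, Cacng5 and Slc7a12, with log2 fold changes of -11.1, -8.23 and -6.22), and 0 changed sign. All 106 had been picked as called genes in these same data. Erg, Pck2 and Egln3 were lost only against a fold of 1.5. The same replicate numbers showed no steady pairing, with correlations of deviations of 0.44, -0.024 and -0.096 for numbers 1, 2 and 4. That of number 1 was the highest among all pairs of a HOMO and a HET library, the next being 0.193. With a replicate block 10805 genes were called, and Hmox1 was not. The causes were not tested. Genes with few counts are limited by depth, and a fold against 0 is a lower bound.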

Other observations

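At 0 counts in all 4 HET libraries and at 10 or more in every HOMO library were 31 genes. Besides Mmp7 they included, chosen after their values were seen, Cxcl3, a neutrophil chemokine, at least 144-fold higher, Padi3, a peptidylarginine deiminase, at least 136-fold higher, Nos2, the inducible nitric oxide synthase, at least 47.9-fold higher, and Il1a, an inflammatory cytokine, at least 47.2-fold higher, each against 3 counts over the HET group. The reverse held for 8 genes, among them Klk1c6, at least 136-fold lower, a kallikrein-family gene with near-identical copies. Among 348 long intergenic RNA genes tested, 239 were called (68.7%), against 71.9% of protein-coding genes.

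Within 1 Mb of Xdh on chromosome 6, 9 of the 10 neighbours tested passed, 2 upward and 7 downward, against 70.9% of the 670 genes tested on that chromosome. They included Galnt14, a glycosyltransferase of mucin type, at a log2 fold change of -4.02, and Srd5a2, a steroid reductase, at -3.41, with Lbh at 2.51 and Fosl2, an AP-1 subunit, at 2.40; these were chosen after their values were seen.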
